A study of Saccharomyces cerevisiae with 4 samples.

Results

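The 7 galactose genes GAL1, GAL2, GAL3, GAL4, GAL7, GAL10 and GAL80 of Saccharomyces cerevisiae were examined in a wild-type strain and in a strain lacking the deacetylase genes SIR2 and HST1. They were chosen by their systematic names (YBR020W, YLR081W, YDR009W, YPL248C, YBR018C, YBR019C and YML051W) as the known galactose utilization and regulatory genes, and all 7 were found among the 6690 names in the files. GAL7, which encodes galactose-1-phosphate uridylyltransferase, was higher in the deletion strain, at 12.2 ± 0.78 against 4.30 ± 0.73 FPKM (fragments scaled by gene length and library size; mean ± SD, n = 2 libraries each). It was the 1 member that passed the test across all names. The transcriptional activator gene GAL4 and the galactokinase gene GAL1 had overlapping levels in the 2 genotypes. GAL2, GAL3, GAL10 and GAL80 lay higher in both deletion libraries than in both wild-type libraries, by 1.49-, 1.43-, 1.30- and 1.11-fold in mean FPKM, and did not pass.

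Total RNA was sequenced in 4 libraries, 2 from each strain, and the series calls the 2 libraries of a strain technical replicates. The p-values therefore measure the spread between libraries and not between cultures. Cells were grown exponentially at 30 °C in YPD, a rich glucose medium, from an optical density of 0.3 to 1, and no galactose was part of the labelled medium. Both strains had the alpha mating type and the alleles can1-100, his3-11, trp1-1 and ura3-1, with mutant leu2 and deleted LYS2. The HMR locus is labelled hmr::ura3 in wild type and hmrD::ura3 in the deletion strain. The second strain also carried KanMX in place of HST1 and TRP1 in place of SIR2. The genotype label of the wild type lists a GAL allele, whereas that of the deletion strain has no GAL entry, so any difference of the strains at a galactose locus and the loss of the deacetylases cannot be told apart. Each genotype is represented by 1 strain.

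In yeast, galactose enters the cell through the permease Gal2 and is turned into glucose-1-phosphate by the Leloir enzymes, which are the kinase Gal1, the transferase Gal7 and the epimerase and mutarotase Gal10. The activator Gal4 binds upstream of these genes and is held inactive by Gal80, until the sensor Gal3, bound to galactose and ATP, relieves Gal80. Glucose represses the genes through the Mig1 repressor and lowers the amount of Gal4. SIR2 and HST1 encode NAD+-dependent deacetylases that act in silencing and, for Hst1, in repression with the DNA-binding protein Sum1.

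A sequence motif with a match before all 7 members is shown first, because it sets the enzyme genes side by side with their regulators. The 500 bases before the start codon of each gene in the RefSeq R64 assembly, which is strain S288C and not the strains sequenced, were searched on both strands for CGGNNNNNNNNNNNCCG, the Gal4-type motif, which reads the same on either strand. All 7 members had at least 1 match, against 2.98% of 6000 genes. The members were chosen as the known galactose genes, so this share describes them and is not a test. The matches are given 5′ to 3′ on the strand of the gene, with the outer triplets in capitals, numbered outward from the start codon; coordinates are left out, since no source used here names the build of the deposited files.
GAL7 match 1: CGGacaactgttgaCCG
GAL10 match 1: CGGcggcttctaatCCG
GAL10 match 2: CGGagggctgtcgcCCG
GAL10 match 3: CGGaggagagtcttCCG
GAL2 match 1: CGGatcactccgaaCCG
GAL2 match 2: CGGggcggatcactCCG
GAL2 match 3: CGGagatatctgcgCCG
GAL2 match 4: CGGcggtctttcgtCCG
GAL3 match 1: CGGtccactgtgtgCCG
GAL80 match 1: CGGcgcactctcgcCCG
GAL4 match 1: CGGtggcgcaggatCCG

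GAL1 and GAL10 are transcribed away from each other across a gap of 668 bases on chromosome II, and the 3 GAL10 matches are the same 3 sites as those of GAL1 read on the other strand. They lie 216 to 269 bases before GAL10 and 400 to 453 bases before GAL1. GAL7, on the same strand as GAL10 and downstream of it, has its own match 176 to 192 bases before its start codon. The first 2 GAL2 matches overlap each other. The GAL4 match lies 454 to 470 bases upstream, beyond the gap of 268 bases to YPL247C and so inside that gene. The number of matches did not follow the size of the difference: GAL7 with 1 match differed most, and GAL1 with 3 matches had a log2 difference of 0.06. Of the 167 other tested genes with such a match, 9.58% were higher and 2.99% lower in the deletion strain, against 6.75% and 2.79% of all names tested, and their median log2 difference was -0.01. A match is a description and not evidence of binding.

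**Figure D1:**
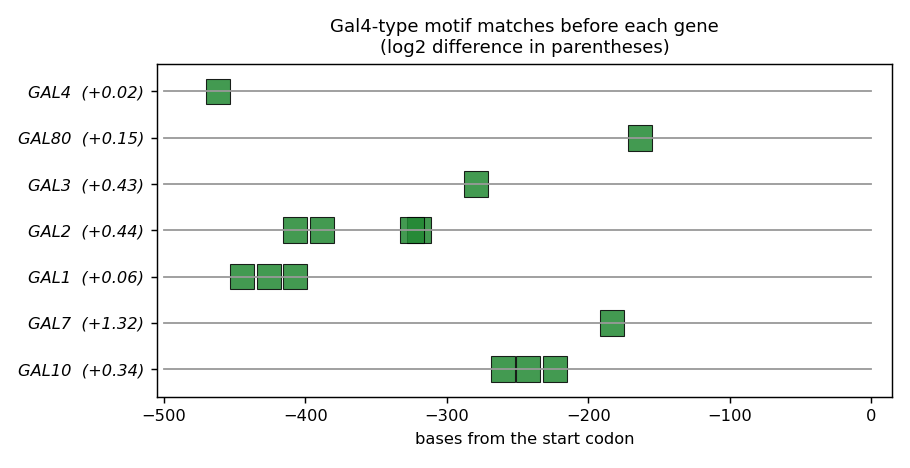
Gal4-type motif matches (green boxes) in the 500 bases before each member's start codon in R64; the horizontal axis is the distance in bases, and the log2 difference of deletion minus wild type stands after each name. GAL7 has 1 match and the difference of 1.32, whereas GAL1 and GAL10 share 3 matches.

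The 300 bases before the start codon are given for GAL7, the member that passed, and for GAL10, its neighbour on the same strand. Whether these sequences bear on the difference in level was not tested. Both are printed 5′ to 3′ on the strand of the gene, which is the minus strand of chromosome II in R64, ending at the base before the start codon, with Gal4-type matches in capitals.
GAL7: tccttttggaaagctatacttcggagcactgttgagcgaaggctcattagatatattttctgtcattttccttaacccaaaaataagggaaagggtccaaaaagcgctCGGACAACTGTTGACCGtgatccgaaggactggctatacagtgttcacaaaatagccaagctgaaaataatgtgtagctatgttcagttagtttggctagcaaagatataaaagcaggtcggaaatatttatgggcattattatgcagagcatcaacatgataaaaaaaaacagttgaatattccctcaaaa
GAL10: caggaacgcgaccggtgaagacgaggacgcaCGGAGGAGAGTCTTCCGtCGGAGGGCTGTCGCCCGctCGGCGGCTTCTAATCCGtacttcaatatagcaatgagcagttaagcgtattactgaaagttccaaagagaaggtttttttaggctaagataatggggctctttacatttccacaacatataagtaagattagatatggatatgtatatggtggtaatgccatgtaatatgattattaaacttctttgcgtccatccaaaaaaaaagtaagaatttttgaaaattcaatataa

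A match to GNCACAAA or GNCGCAAA, forms of the element that Sum1 binds before middle sporulation genes, was found in the 500-base window of 0 and 1 members, against 6.93% and 5.05% of genes; the 1 member was GAL10. For Mig1 only 1 form of the core, CCCCGC, was searched. It was found in 0 of the 7 windows, against 5.77% of genes, and other forms of the core were not searched. These letters were searched on both strands, and their absence from this window says nothing of the factors.

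Across all names the comparison asked which genes changed when both deacetylases were missing. FPKM summed to between 3419038 and 3662426 in a library, medians lay between 36.9 and 37.3, and the read totals are not known. SIR2 and HST1 were listed at 0 in both deletion libraries. Genes specific to alpha cells summed to 5518 and 5766 FPKM in wild type, against 4840 and 5508 in the deletion libraries, and genes specific to a cells to 102 and 45.0 against 112 and 106. MF(ALPHA)1 and MF(ALPHA)2 made up most of the alpha-cell sums. In wild type the a-cell sums held MFA1 at 35.3 and 0 FPKM and MFA2 at 47.0 and 21.1. The test was limma on log2(FPKM + 1) over 6370 names with Benjamini-Hochberg adjustment, and it called 6.75% of names higher and 2.79% lower. Of 4 alpha-cell genes 1 was lower and 0 were higher. The lower gene was SAG1, at 304 and 335 FPKM in wild type, against 158 and 171 in the deletion libraries (log2 difference -0.95, limma adjusted p = 0.00359). Of 6 a-cell genes 0 passed, and all 6 had a positive difference, against 49% of names. Of the 7 members, 1 was higher and 0 were lower (limma; before adjustment 3 higher and 0 lower genes had p under 0.05, against 16.1% of names higher). Among the 1824 tested names with a wild-type mean of 1 to 20 FPKM, the range of every member but GAL80, 11.6% were higher. One called gene in 7 is therefore near the background. Both deletion libraries lay above both wild-type libraries for 5 members, which held for 30.5% of all names tested and 39.3% of those in that range, and both lay below for 0 members, against 31.7% of names. The members' median log2 difference was 0.34, against -0.01 over all names, and 7 of 7 lay above 0, against 49% of names; after quantile normalization the median was 0.09, against -0.06, and 4 lay above 0.

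**Figure D2:**
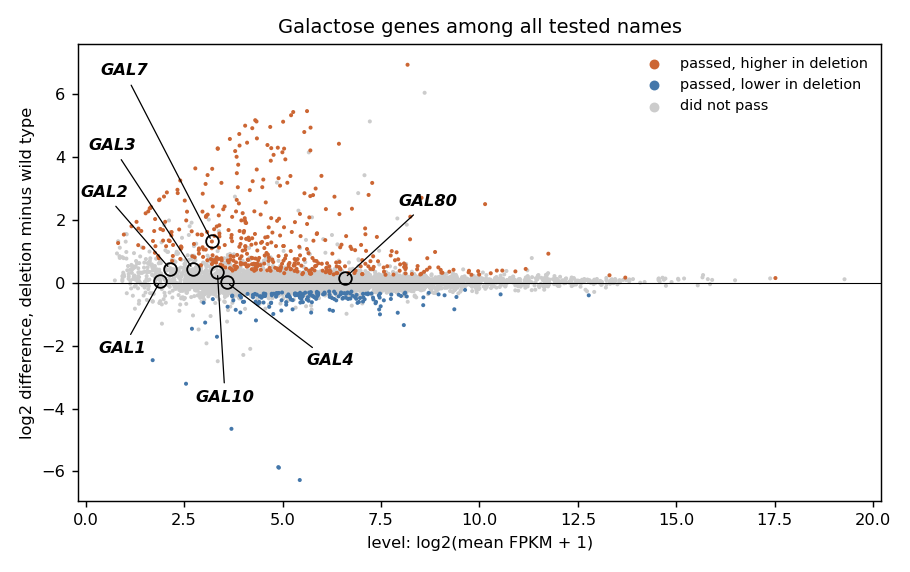
Log2 difference (deletion minus wild type) against level, log2(mean FPKM + 1), for each tested name; orange and blue points passed the adjusted p, and circles mark the 7 galactose genes. GAL7 is the circled gene among the orange points, and the other members lie among names that did not pass.

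GAL80 was the most abundant member in every library, and GAL3 the lowest of the 3 regulators. FPKM is scaled by length, so levels can be set beside each other. GAL80, the gene of the inhibitor of Gal4, was at 88.7 and 90.1 FPKM in wild type, against 95.4 and 103 in the deletion libraries. The deletion libraries were both higher and the groups did not overlap, but the log2 difference of 0.15 (SE 0.06) did not pass (limma adjusted p = 0.195). GAL80 made up 73.0% and 72.9% of the 7 members' summed FPKM in wild type and 68.0% and 67.8% in the deletion strain.

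GAL4, the activator gene, was at 11.1 and 10.7 FPKM in wild type, against 10.8 and 11.3 in the deletion libraries. The 2 groups overlapped, and the highest single value was in a deletion library. Its log2 difference was 0.02 with a 95% interval of -0.19 to 0.22 (limma, adjusted p = 0.9), so a difference beyond about 0.22 on that scale lay outside the interval. The ratio of GAL80 to GAL4 was 8.01 and 8.42 in wild type and 8.83 and 9.17 in the deletion strain. R64 annotates an antisense RNA that overlaps GAL4, and another, YNCB0008W, that overlaps GAL10 and GAL1. By the strand letter of its name, the latter runs opposite to GAL10 and on the same strand as GAL1. Whether the authors' processing used strand is not given in the sources used here, so sense and antisense reads of GAL4 and GAL10 cannot be told apart. For GAL1, strand would not separate its reads from those of the RNA that overlaps it.

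GAL3, the gene of the galactose sensor and a paralog of GAL1, was at 4.85 and 4.39 FPKM in wild type, against 6.48 and 6.70 in the deletion libraries. Both deletion values were above both wild-type values. The log2 difference of 0.43 (SE 0.11, 95% interval 0.15 to 0.72 before adjustment) did not pass (limma adjusted p = 0.0782). It passed when only names in R64 were tested (adjusted p = 0.0479) and without the mean-variance trend (0.0394), at the same difference. After quantile normalization the difference was 0.09 (adjusted p = 0.598). GAL1 and GAL3 coding sequences aligned at 70.3% identity over 92.1% of GAL1, and no member had a near-identical copy.

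GAL2, the permease gene, was at 2.58 and 2.94 FPKM in wild type, against 3.57 and 4.65 in the deletion libraries. The deletion libraries were again both higher, but they lay further from each other than the wild-type pair did. The log2 difference was 0.44 (SE 0.17) and did not pass (limma adjusted p = 0.17); it was -0.08 after quantile normalization. Without deletion replicate 2 the difference was 0.28 (adjusted p = 0.401), and without deletion replicate 1 it was 0.59 (0.157). The closest other coding sequence was that of the hexose transporter gene HXT8, at 70.6% identity over 88.9% of GAL2.

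**Figure D3:**
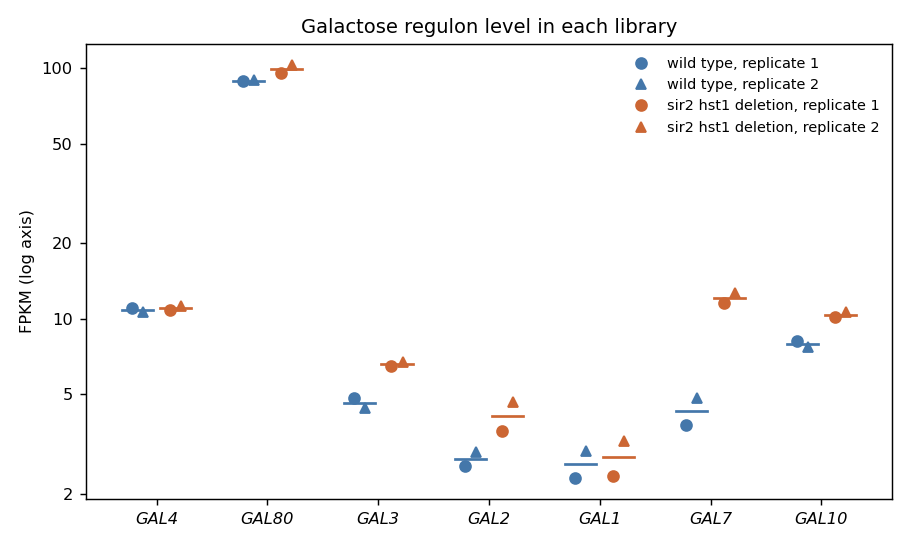
FPKM of the 7 galactose genes in each library on a log axis, regulators first; blue is wild type, orange the sir2 hst1 deletion strain, circles and triangles are replicates 1 and 2, and horizontal lines are genotype means. GAL7 separates from 3.78 and 4.82 to 11.6 and 12.7 FPKM, and GAL4 and GAL1 overlap.

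The 3 enzyme genes stand next to one another on chromosome II, in the order GAL7, GAL10 and GAL1, and they did not share 1 level or 1 difference. GAL7 was at 3.78 and 4.82 FPKM in wild type, against 11.6 and 12.7 in the deletion libraries. Both deletion values stood above both wild-type values, and the genotype means were 2.82-fold apart. The log2 difference was 1.32 (SE 0.13, 95% interval 0.96 to 1.67; limma adjusted p = 0.008) and ranked at percentile 97.0 of all names tested. Leaving out deletion replicate 1 or 2 gave differences of 1.38 and 1.26 that missed the threshold (adjusted p = 0.0639 and 0.0741), whereas the call held without either wild-type replicate (0.00554 and 0.00352). In the ranking of all 6690 names by level, GAL7 stood at percentiles 9.88 and 11.5 in wild type and 19.6 and 21.3 in the deletion strain, so it was a low gene in all 4 libraries. In bulk cultures, more cells with GAL7 transcripts and more transcripts per cell cannot be told apart.

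GAL10, the epimerase gene, was at 8.18 and 7.75 FPKM in wild type, against 10.1 and 10.6 in the deletion libraries. The replicates of each genotype lay close together and the groups did not overlap. The log2 difference was 0.34 (SE 0.09) and did not pass (limma adjusted p = 0.0779); after quantile normalization it was 0.16 (adjusted p = 0.253). GAL1, the galactokinase gene, was the lowest member in the mean of either genotype, at 2.31 and 2.97 FPKM in wild type, against 2.35 and 3.25 in the deletion libraries. Replicate 2 was the higher library of each genotype, and the groups overlapped. Its log2 difference was 0.06 with a 95% interval of -0.46 to 0.58 (limma, adjusted p = 0.875), so these libraries do not fix its direction.

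The levels of the cluster's genes can also be set against each other within a library. GAL7 was at 0.463 and 0.622 of the GAL10 level in wild type, against 1.15 and 1.20 in the deletion libraries, so the order of the pair was opposite in the 2 genotypes in all 4 libraries. Against GAL1, GAL7 stood at 1.64 and 1.63 in wild type, against 4.93 and 3.91 in the deletion libraries. Both log2 ratios were separate between genotypes, with differences of 1.13 and 1.43, and an exact two-sided permutation test over the 4 libraries gave p = 0.333 for each of the 2 ratios (adjusted p = 0.333), the smallest value that 2 against 2 libraries allow, so no difference in these ratios could be shown by it. GAL1 relative to GAL10 was 0.282 and 0.383 in wild type and 0.232 and 0.306 in the deletion strain, with overlap.

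In wild type the order of mean level was GAL80, GAL4, GAL10, GAL3, GAL7, GAL2 and GAL1. GAL3 overlapped GAL7 and GAL2 overlapped GAL1 there, so these neighbours in the order did not differ beyond their spread. In the deletion strain GAL7 came second, above GAL4, GAL10, GAL3, GAL2 and GAL1, with no overlap between neighbours. The margins were narrow, as the lower GAL7 library (11.6 FPKM) stood just above the higher GAL4 library (11.3), and the lower GAL4 library (10.8) just above the higher GAL10 library (10.6).

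The genes beside the members were compared to see whether a difference extended along the chromosome. Of 20 neighbours, the 2 nearest genes on each side of a member in R64, 2 were higher and 0 lower (limma), against 6.75% and 2.79% of all names. The 2 were EMP46 and TRP1, the marker put in place of SIR2. Before adjustment 7 higher and 3 lower neighbours had p under 0.05 (limma), against 1025 and 900 of 6370 names. KAP104, a karyopherin gene 723 bases beyond GAL7, was at 60.5 and 62.3 FPKM in wild type, against 64.1 and 61.1 in the deletion libraries (log2 difference 0.03, adjusted p = 0.79). FUR4, the uracil permease gene on the GAL1 side, had a log2 difference of -0.11 (adjusted p = 0.304), and POA1 beyond it one of -0.08 (0.408). GAL7 was thus flanked on both sides by genes that did not pass.

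GAL3 lies 917 bases from TRP1 in R64, and TRP1 is the marker that replaced SIR2. TRP1 was at 29.6 and 31.0 FPKM in wild type, against 134 and 149 in the deletion libraries (log2 difference 2.19, limma adjusted p = 0.000275). The labels do not give how far the marker fragment reached, and its part in the GAL3 values was not tested. On the other side of GAL3, YDR010C had a log2 difference of 0.47 (adjusted p = 0.134) and the drug transporter gene SNQ2 one of 0.35 (adjusted p = 0.0561). SNQ2 passed, as GAL3 did, when only names in R64 were tested (adjusted p = 0.0354), and it was at 0.34 after quantile normalization, where YDR010C was at 0.16. YDR010C was at 0.27 without wild-type replicate 1. SOK1, beyond TRP1, was at 24.9 and 23.8 FPKM in wild type, against 22.2 and 25.9 in the deletion libraries.

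Next to GAL2, EMP46, which encodes a lectin-like protein of transport from the endoplasmic reticulum to the Golgi, was the second neighbour that rose. It was at 6.09 and 6.46 FPKM in wild type, against 12.2 and 11.4 in the deletion libraries (log2 difference 0.81, limma adjusted p = 0.0104). The call was lost without deletion replicate 1 (adjusted p = 0.0712) or 2 (0.0638). SRL2, on the other side of GAL2, had a log2 difference of 0.28 (adjusted p = 0.132). None of the 4 neighbours of GAL4 or the 4 of GAL80 passed (limma; 1 of the former and 3 of the latter had an unadjusted p under 0.05). The largest difference among these was that of YPL247C beside GAL4, -0.50 (adjusted p = 0.11). It was -0.29 without deletion replicate 1 (adjusted p = 0.109), and -0.70 without deletion replicate 2, where it passed (0.0413).

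**Figure D4:**
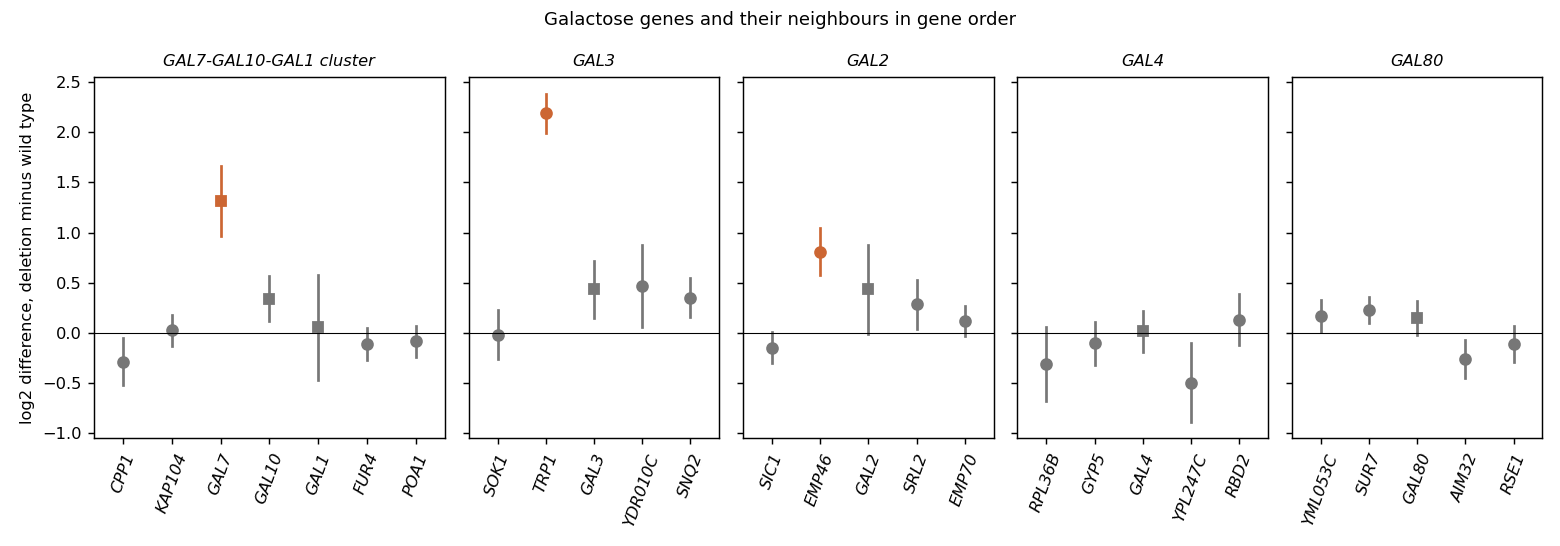
Log2 difference (deletion minus wild type) of the galactose genes (squares) and their neighbours (circles) in gene order, with unadjusted 95% intervals from limma; orange marks genes that passed. GAL7 (1.32), TRP1 (2.19) and EMP46 (0.81) passed, and KAP104 and FUR4 lie near 0.

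Among genes around the pathway, GCY1 and PGM2 fell. Of 8 other genes bound by Gal4 or feeding the Leloir products into glycolysis and the sugar nucleotides, 0 rose and 2 fell (limma), against 6.75% and 2.79% of all names. Their median log2 difference was -0.25. Before adjustment 0 higher and 5 lower genes had p under 0.05 (limma), against 1025 and 900 of 6370 names. GCY1, a glycerol dehydrogenase gene with 1 Gal4-type match, was at 51.1 and 53.3 FPKM in wild type, against 34.4 and 32.4 in the deletion libraries, and its log2 difference was -0.63 (adjusted p = 0.00764). PGM2 encodes a phosphoglucomutase, which links the galactose pathway to glycolysis. It was at 25.8 and 23.5 FPKM in wild type, against 15.1 and 16.5 in the deletion libraries (log2 difference -0.61, adjusted p = 0.0197). Its call was lost when wild-type replicate 1 (adjusted p = 0.0548), deletion replicate 1 (0.0811) or deletion replicate 2 (0.0655) was left out. PGM1, the other phosphoglucomutase gene, had the higher level of the pair in every library and did not fall. It was at 122 and 125 FPKM in wild type, against 130 and 146 in the deletion libraries (log2 difference 0.15, adjusted p = 0.241). MTH1, a regulator of glucose sensing, had a difference of -0.35 (adjusted p = 0.098).

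Of 15 genes of the glucose repression machinery, 0 passed (limma), against 6.75% of all names higher and 2.79% lower. Before adjustment 2 higher and 4 lower genes had p under 0.05 (limma), against 1025 and 900 of 6370 names. The median log2 difference of the 15 genes was -0.03. MIG1, the repressor gene that acts on the galactose genes, was at 15.5 and 18.8 FPKM in wild type, against 16.7 and 19.2 in the deletion libraries. The largest differences were -0.59 for its paralog MIG2 (adjusted p = 0.0835), 0.53 for the repressor gene NRG1 (0.0762) and -0.33 for SIP2, a subunit of the Snf1 kinase (0.0882). MIG2 passed after quantile normalization (0.0422) and without wild-type replicate 2 (0.0313). NRG1 passed with the replicate block (0.0206), on R64 names only (0.0468) and without wild-type replicate 2 (0.0498), and SIP2 in 1 of 13 alternatives.

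Of 20 other genes repressed by glucose, 18 were tested, 3 rose and 1 fell, against 6.75% and 2.79% of all names, with a median log2 difference of 0.14. The 3 that rose had wild-type means of 1 to 20 FPKM, where 11.6% of tested names were higher. Before adjustment 5 higher and 5 lower genes had p under 0.05 (limma), against 1025 and 900 of 6370 names. SIP4, an activator gene of gluconeogenesis, was at 2.43 and 2.35 FPKM in wild type, against 6.31 and 6.53 in the deletion libraries (log2 difference 1.13, limma adjusted p = 0.00852), and missed the threshold without deletion replicate 1 (0.0723) or 2 (0.0785). ADR1, an activator gene of ethanol and fatty acid use, had a difference of 0.69 (adjusted p = 0.0425) and JEN1, a lactate permease gene, one of 0.58 (0.0405). Each was lost when either deletion replicate was left out (adjusted p of 0.134 and 0.128 for ADR1, 0.12 and 0.122 for JEN1), and after quantile normalization (0.378 and 0.0716). ADR1 was also lost without wild-type replicate 1 (0.108) or 2 (0.141) and with the replicate block (0.0802), and JEN1 without wild-type replicate 1 (0.106), with the block (0.0579) and without the filter (0.0524). MDH2, the cytosolic malate dehydrogenase gene, fell by 0.53 (adjusted p = 0.0122), which narrowly missed the threshold without deletion replicate 2 (0.0517). SUC2, the invertase gene and a textbook target of glucose repression, was at 60.2 and 60.5 FPKM in wild type, against 60.8 and 63.5 in the deletion libraries (adjusted p = 0.673).

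**Figure D5:**
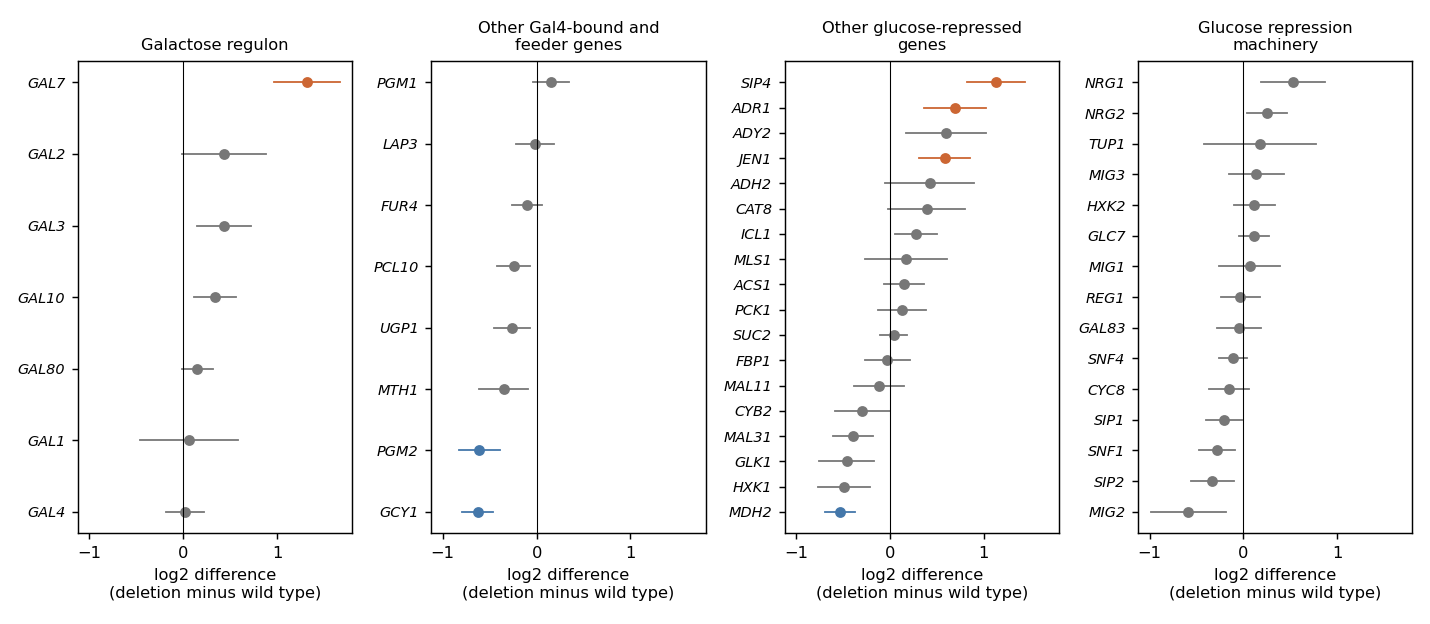
Log2 difference (deletion minus wild type) with unadjusted 95% intervals from limma for the galactose regulon and 3 related lists; orange genes passed as higher, blue as lower, grey did not pass. GAL7 is the 1 orange member at the left, and GCY1 and PGM2 are the 2 blue genes beside it.

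The genes whose levels across the 4 libraries lay nearest to those of GAL7, by Euclidean distance in log2(FPKM + 1), were YLR460C (distance 0.25), DIA3 (0.37) and DON1 (0.40). YLR460C was at 4.06 and 5.71 FPKM in wild type, against 10.6 and 12.5 in the deletion libraries. For the other members the nearest genes were GRE1 for GAL3 (0.10), YGR107W for GAL2 (0.11), YEL045C for GAL1 (0.22), FMP23 for GAL10 (0.11), MRH4 for GAL4 (0.07) and AAT1 for GAL80 (0.06). No member was among the 3 genes nearest to another member.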

How the data were processed

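The authors deposited 1 FPKM value per name and library, made with TopHat2 2.0.10 and Cuffnorm 2.2.1 per the submitters' processing notes. No source used here gives the build, annotation, strand use or scaling between libraries. FPKM carries no read totals, so depth is unknown and no count test was run. A name was tested if 2 or more libraries reached 1 FPKM, which 6370 of 6690 did. The test used limma 3.58.1 (R 4.3.3), run on log2(FPKM + 1) with a mean-variance trend, no covariate, and Benjamini-Hochberg adjusted p under 0.05. Changes of low genes are understated on this scale. Folds are ratios of mean FPKM. The test was checked on simulated data. R64 gave symbols (6007 names matched), gene order and upstream sequence; coding sequences were compared with blastn 2.17.0. The members and lists were chosen with earlier results of these data known. The rule for names took all members, their 2 nearest genes on each side, and from each list the genes that passed or otherwise up to 3 by size. Neighbours that did not pass are partly given only in the plot and the counts. URA3 and HIS3, which passed in the marker list, are named here without values. Of the a-cell genes, none of which passed, only MFA1 and MFA2 are named. FUR4, MTH1, PGM1, MIG1 and SUC2 were added for their known roles after their values were seen. Alternatives changed the pseudocount, filter, scaling, trend, names tested, replicate block and libraries.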

Additional observations from a re-analysis of the deposited data

How the results depend on the processing

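GAL7 kept its direction under the 13 alternatives run, with differences between 0.88 (pseudocount of 5) and 1.49 (pseudocount of 0.1), and passed except when a deletion replicate was left out. Without each library in turn its difference ranged from 1.17 to 1.46, and 0 or 1 members were higher. Members called higher numbered 2 without the trend and with R64 names only, since GAL3 (0.43 in both) then passed. Differences turned negative after quantile normalization for GAL1 (-0.47), GAL2 (-0.084) and GAL4 (-0.12). Without each library in turn, GAL1 ranged from -0.11 to 0.23 and GAL4 from -0.011 to 0.047. With a minimum of 5 FPKM GAL1 and GAL2 were not tested. Over all names, 430 were higher and 178 lower; without each library in turn these counts ranged from 184 to 377 and from 47 to 83. Lower names numbered 294 after quantile normalization, where 54.7% of calls were higher against 70.7%, and 297 with R64 names only. With the replicate block, 360 were higher and 111 lower and GAL7 passed (adjusted p = 0.00925). Same-numbered libraries did not deviate together (r = -0.09 across names, which are not independent), and no label pairs them, so the block shows a shared number only. The causes were not tested.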
